A study of Mus with 15 samples.

Results

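The transcripts described here were taken as markers of the fat that surrounds the aorta: Adipoq, Cfd, Retn and Lep, which encode proteins secreted by fat cells, Fabp4, Lpl and Pparg, which serve lipid handling and the fat cell program, and Ucp1 and Cidea, which are high in brown fat. They were chosen by identifier, 1 Ensembl transcript per gene, and all 9 were present in the files of all 15 mice, out of 126719 transcripts listed for the Control and AngII mice and 125443 listed for the AngII+QDG mice, with 108027 Ensembl transcripts in both lists. Abdominal aortas were taken for RNA-seq from male wild-type C57BL/6 mice that were 8 to 10 weeks old at purchase, 5 mice per group. Control mice were infused with saline and AngII mice with Angiotensin-II at 500 ng/kg/min, both for 14 days and both with water by gavage. The AngII+QDG mice received the same Angiotensin-II infusion and the herbal Qingda granule (QDG) by gavage at 1.145 g/kg/day. The study asked which transcripts change after AngII infusion and after QDG treatment. The aorta was dissected, and neither the labels nor the methods say whether the surrounding fat was stripped off. The files name no genes, so the gene names rest on the fixed list of identifiers, and smooth muscle, endothelial and other tissue markers were not analysed here. How far other cells of the aorta contribute to the 9 values was not tested.

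Perivascular fat lies directly on the outer coat of the aorta. White fat cells store triglyceride in a single large droplet and secrete adipokines such as adiponectin and leptin. Brown fat cells hold many small droplets and many mitochondria, and burn lipid to heat through the uncoupling protein UCP1. In mice, the fat around the thoracic aorta is mostly brown, while that around the abdominal aorta holds white and brown-like fat cells.

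Levels are given in FPKM, which corrects fragment numbers for transcript length and library size, so they can be set side by side between transcripts. Summed FPKM was 454587 to 547311 per mouse. Absolute depth is unknown, and a relative depth estimated from the lowest values differed by 1.13-fold between the deepest and the shallowest library. The AngII+QDG files use another transcript list than the other 10 files, so list and QDG treatment cannot be told apart in any comparison with these mice. In whole tissue, fewer fat cells and less RNA per fat cell cannot be told apart either. The mice are separate animals, and no pair of files was identical.

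Of the 9 fat transcripts, 6 were among the most abundant of the aorta in every mouse, and Pparg, Lep and Lpl were far lower. Fabp4, which encodes a fatty acid carrier abundant in fat cells, ranked between 6th and 16th among the 108027 shared Ensembl transcripts. Cfd, which encodes the serine protease adipsin, ranked from 18 to 56, and Adipoq, which encodes adiponectin, from 56 to 184. The brown fat transcripts were of the same order, with ranks of 43 to 625 for Ucp1 and 46 to 178 for Cidea. Retn ranked from 88 to 304, while ranks were 1614 to 14793 for Pparg, 3358 to 16359 for Lep and 3970 to 67152 for Lpl. Together the 9 transcripts made up 1.28% to 1.60% of summed FPKM in Control mice, 0.929% to 1.47% in AngII mice and 0.749% to 1.21% in AngII+QDG mice. The 6 abundant transcripts were high in all 15 mice, whereas Lpl was below 1 FPKM in 3 mice.

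**Figure D1:**
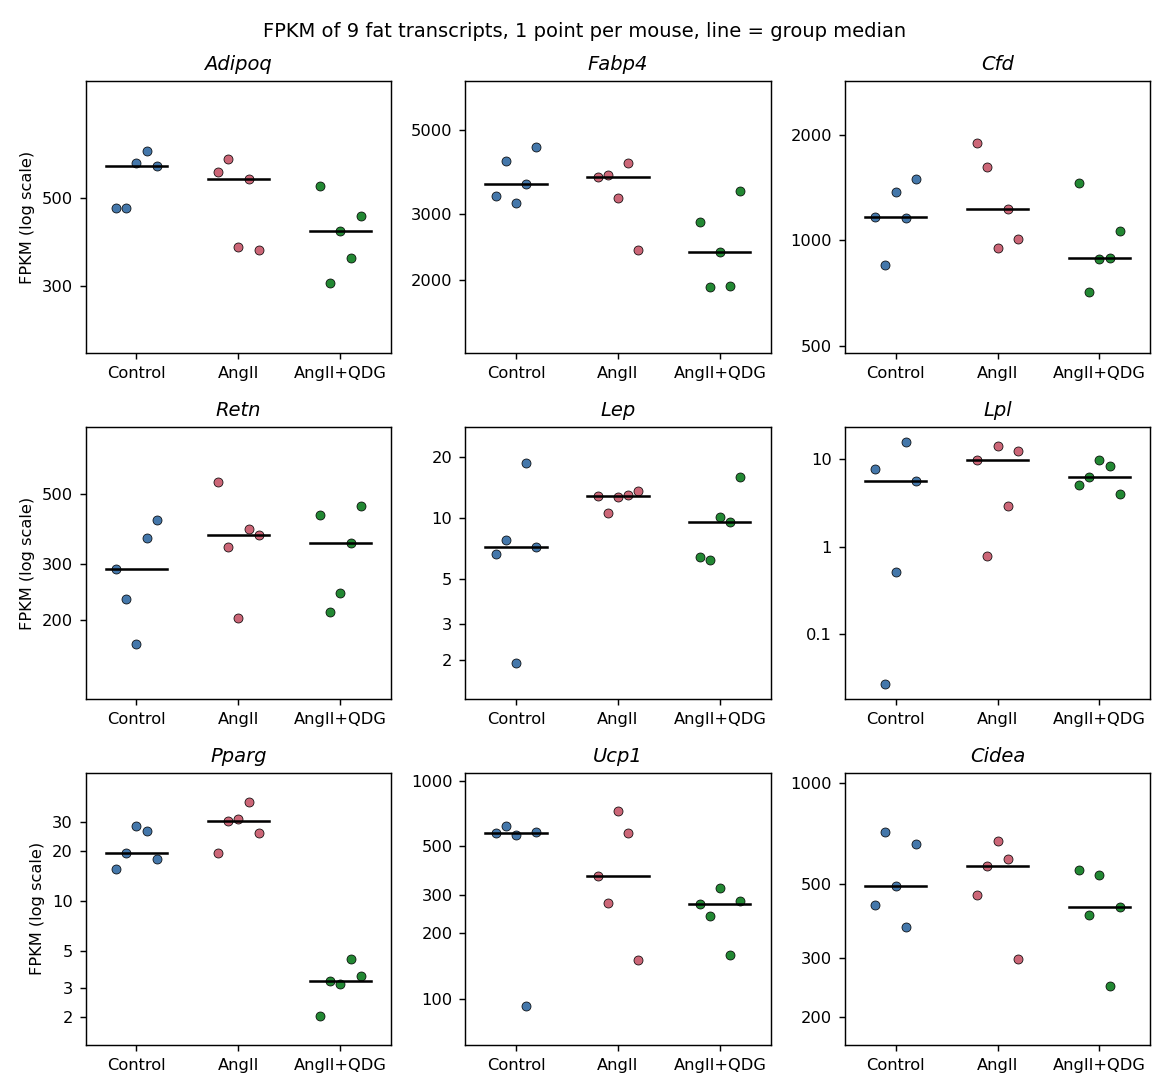
FPKM (log scale) of the 9 fat transcripts in the Control, AngII and AngII+QDG groups, with 1 point per mouse and a line at the group median. Pparg sits between 2.04 and 4.49 in AngII+QDG mice and between 15.6 and 39.4 in all others, Ucp1 is at 92.5 in 1 Control mouse, and the groups overlap for the other transcripts.

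Among the secreted proteins, adiponectin is made almost only by fat cells and rises with insulin sensitivity. The Adipoq transcript (ENSMUST00000023593, gene at chr16:23146536-23157968 in GRCm38.p6) was at 470.4, 471, 609, 652 and 599 FPKM in the Control mice. It was at 579, 623, 376, 557 and 371 FPKM in the AngII mice and at 534, 306, 413, 352 and 450.5 FPKM in the AngII+QDG mice. The highest mouse was thus 2.13 times the lowest. Of the AngII+QDG mice, 4 of 5 were below every Control mouse, while AngII mice overlapped with both groups.

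Cfd (ENSMUST00000061653, chr10:79890853-79892655), a protease of the alternative complement pathway, was between 850 and 1495 FPKM in Control mice (median 1166), between 952 and 1896 in AngII mice (median 1230) and between 713 and 1455 in AngII+QDG mice (median 888). Retn (ENSMUST00000012849, chr8:3655770-3659818), which encodes the adipokine resistin, was between 168 and 414 FPKM, between 203 and 547, and between 212 and 458 in the same order. The 3 groups overlapped broadly for both.

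Leptin signals fat stores to the brain and is a product of white rather than brown fat. Its transcript (Lep, ENSMUST00000069789, chr6:29060221-29073876) was far lower than those of the other adipokines. It was at 6.67, 7.84, 1.92, 18.8 and 7.23 FPKM in the Control mice, and at 12.9, 10.6, 12.7, 13.0 and 13.6 FPKM in the AngII mice. The AngII mice lay close together, inside the range of the Control mice. The AngII+QDG mice were at 6.46, 6.25, 10.2, 9.55 and 15.9 FPKM, with 4 below and 1 above all AngII mice.

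For lipid handling, Fabp4 (ENSMUST00000029041, chr3:10204342-10208616) was at 3344, 4130.3, 3210.4, 3608 and 4504 FPKM in the Control mice. It was at 3753, 3799, 3302, 4100.3 and 2397 FPKM in the AngII mice and at 2851, 1916, 2370.3, 1923 and 3443 FPKM in the AngII+QDG mice. Of the AngII+QDG mice, 4 of 5 were below every Control mouse and 3 of 5 were below every AngII mouse.

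Lpl encodes lipoprotein lipase, which frees fatty acids from circulating triglyceride for uptake by fat and muscle. Its transcript (ENSMUST00000015712, chr8:68880555-68906932) was at 7.72, 0.0273, 0.518, 15.7 and 5.70 FPKM in the Control mice, at 9.72, 0.790, 14.1, 2.97 and 12.5 FPKM in the AngII mice, and at 5.11, 6.27, 9.93, 8.37 and 4.06 FPKM in the AngII+QDG mice. The lowest value, 0.0273, is too near 0 for an exact fold. Without mouse 4000 the highest Lpl value was 30.3 times the lowest, against 2.35 times for Fabp4 over all 15 mice. The Control mouse with the lowest Lpl value, mouse 4000, was second only to mouse 3994 in Fabp4. Each value is that of a single transcript, and fragments that StringTie assigned to other transcripts of a gene are not in it.

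Pparg encodes the nuclear receptor PPARγ, the master regulator of fat cell formation, of which Adipoq, Fabp4 and Lpl are known targets. The listed transcript (ENSMUST00000000450, gene at chr6:115360879-115490404) was at 15.6, 19.5, 28.1, 26.3 and 17.9 FPKM in the Control mice and at 19.5, 30.2, 31.1, 39.4 and 25.5 FPKM in the AngII mice. It was at 2.04, 3.29, 3.18, 4.49 and 3.52 FPKM in the AngII+QDG mice. All 5 AngII+QDG mice were below all 10 others, and the lowest of the others was 3.48 times the highest AngII+QDG mouse. RefSeq lists 4 curated transcripts of this gene, and the sum over the gene was not analysed here.

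Ucp1 and Cidea describe the brown side of this fat. Ucp1 (ENSMUST00000034146, chr8:83290348-83298456), which encodes the protein that uncouples respiration in brown fat mitochondria, was at 574, 623, 563, 92.5 and 584 FPKM in the Control mice. It was at 366, 275, 726, 577 and 151 FPKM in the AngII mice and at 272, 239, 324, 160 and 281 FPKM in the AngII+QDG mice. Without Control mouse 3971, set aside for its low value of 92.5, the other Control mice were all above all AngII+QDG mice. AngII mice spanned both groups.

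Cidea (ENSMUST00000025404, chr18:67343564-67367794) encodes a protein of the lipid droplet surface that is abundant in brown fat. It was at 431, 715, 491, 371 and 658 FPKM in the Control mice, at 463, 565, 672, 590.4 and 298 FPKM in the AngII mice and at 548, 403, 531, 247 and 424 FPKM in the AngII+QDG mice. The groups overlapped, and the highest mouse was 2.90 times the lowest, against 7.85 times for Ucp1.

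After AngII infusion, none of the 9 fat transcripts was called changed. Differences between groups were tested with limma on log2(FPKM + 1), for transcripts with at least 1 FPKM in at least 5 of the 10 mice compared, which all 9 passed in each comparison. A transcript was called differentially expressed (DET) where FPKM + 1 changed at least 2-fold with an unadjusted p below 0.05. In AngII vs. Control, 0 of 9 were DETs and 0 had an unadjusted or adjusted p below 0.05, while 1 of 9 had an unadjusted p below 0.05 without Control mouse 4086, without Control mouse 3971 or without AngII mouse 3988. Among all 27327 transcripts tested with all 10 mice, 1.5% were DETs, 4.75% had an unadjusted p below 0.05 and 0.00732% an adjusted p below 0.05. The share with an unadjusted p below 0.05 was not taken in the fits without 1 mouse. The values of the groups overlapped for all 9, where 0.732% of all tested did not overlap. The log2 fold change was negative for 4 of 9, against 47.2% of all, and its median was 0.12 over the 9 transcripts and 0.02 over all tested. That median was -0.013 without AngII mouse 3988, 0.23 without AngII mouse 3986 and 0.037 with 1 FPKM required in every mouse.

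The intervals of the AngII effect were narrowest for Adipoq and Fabp4 and widest for Lpl and Ucp1. For Adipoq the log2 fold change was -0.18 (standard error 0.19, 95% interval -0.60 to 0.24), and for Fabp4 it was -0.13 (-0.55 to 0.29). For Ucp1 it was -0.15 (-1.48 to 1.17) and for Lpl 0.67 (-1.26 to 2.60), so that changes of 2-fold in either direction lay within these intervals. Pparg, with 3 of 5 AngII mice above every Control mouse, had 0.42 (-0.058 to 0.90; limma adjusted p = 0.995). Lep had 0.76 (-0.14 to 1.66; limma adjusted p = 0.995). Without Control mouse 3971, the highest in Lep, the change was 1.09 (0.38 to 1.80) and Lep was called a DET, with a limma adjusted p of 0.886.

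**Figure D2:**
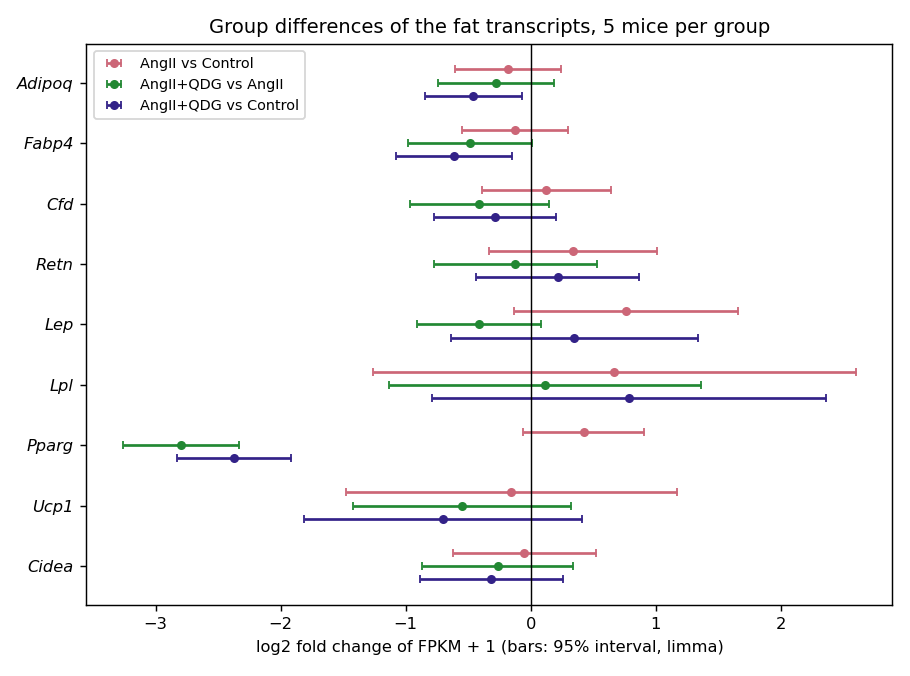
Log2 fold change of FPKM + 1 for the 9 fat transcripts in AngII vs. Control, AngII+QDG vs. AngII and AngII+QDG vs. Control, 5 mice per group, with 95% intervals from limma. The intervals of Pparg against AngII+QDG mice lie between -3.26 and -1.92, those of Adipoq and Fabp4 in AngII+QDG vs. Control end below 0, and all others cross 0.

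Between AngII+QDG and AngII mice, Pparg was the only fat transcript called. Its mean was 3.30 ± 0.874 FPKM (SD, n = 5) against 29.1 ± 7.35 FPKM (SD, n = 5). This gave a log2 fold change of -2.80 (95% interval -3.26 to -2.33; limma adjusted p = 3.98e-05). Thus 1 of 9 transcripts was a DET and 1 of 9 had an adjusted p below 0.05, where 3.53% and 1.73% of all 21081 tested did. Pparg was also the 1 of 9 with an unadjusted p below 0.05 (7.86% of all tested) and the 1 of 9 whose groups did not overlap (2.86%). The count with an unadjusted p below 0.05 was 4 after scaling to the upper quartile of each mouse. It was 3 without AngII mouse 4048 or without AngII+QDG mouse 3985. The share of all transcripts was not taken in these other fits, and the scaling moved the median log2 fold change of all transcripts to -0.12. In AngII+QDG vs. Control, Pparg fell by 2.38 on the log2 scale (standard error 0.21, limma adjusted p = 0.000119), from a Control mean of 21.5 ± 5.43 FPKM (SD, n = 5), again as the only one of the 9, where 3.64% of 21250 tested were DETs and 1.81% had an adjusted p below 0.05. Groups did not overlap for 1 of 9, Pparg, and for 3.24% of all.

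Other transcripts also set the AngII+QDG mice apart from all others. Of 23914 shared Ensembl transcripts with at least 1 FPKM in at least 5 mice, 215 (0.899%) were lower and 208 (0.870%) were higher in every AngII+QDG mouse than in all 10 other mice. A gap at least as wide as that of Pparg was found in 54 transcripts downward (0.226%) and in 56 upward (0.234%). The part of the transcript list in the Pparg value was not tested. The 6 abundant fat transcripts had log2 fold changes between -0.55 (Ucp1) and -0.12 (Retn) in AngII+QDG vs. AngII, none of which passed, and that of Retn was above 0 without AngII mouse 3988 (0.035) or AngII+QDG mouse 3982 (0.030).

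None of the other 8 fat transcripts passed in AngII+QDG vs. AngII, adjusted or unadjusted. The log2 fold change against AngII mice was negative for 7 of the 8 others, where it was negative for 50.6% of all transcripts tested, with a median of -0.34 against -0.0032 over all. It was -0.49 for Fabp4 (-0.99 to 0.013; limma adjusted p = 0.657) and -0.41 for Cfd (-0.97 to 0.14; limma adjusted p = 0.840). After scaling of FPKM to the upper quartile of each mouse, the median of all transcripts was -0.12 and that of the 9, Pparg included, was -0.55, against -0.41 without this scaling.

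Against Control mice, Fabp4 had a log2 fold change of -0.61 (-1.08 to -0.15; limma adjusted p = 0.320) and Adipoq of -0.46 (-0.85 to -0.069; limma adjusted p = 0.411). With Pparg, these made 3 of 9 with an unadjusted p below 0.05, against 8.98% of all tested. Without Pparg, the median over the other 8 was -0.30 and 5 of 8 were negative, against 46.8% of all. The 3 with a positive value were Retn with 0.21 (-0.44 to 0.87), Lep with 0.35 (-0.64 to 1.34) and Lpl with 0.78 (-0.79 to 2.36), and none passed. Both comparisons share the AngII+QDG mice and their transcript list.

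For Ucp1, the result in AngII+QDG vs. Control turned on 1 mouse. With all 10 mice its log2 fold change was -0.70 (-1.82 to 0.41; limma adjusted p = 0.830), and without Control mouse 3971 it was -1.23 (-1.68 to -0.79; limma adjusted p = 0.0149), which made it a DET. Ucp1 in the 4 remaining Control mice was between 563 and 623 FPKM. Mouse 3971 was singled out by its low Ucp1 value, so the fit without it gives no separate support for a difference. AngII mouse 4048 (151 FPKM) and AngII+QDG mouse 3984 (160 FPKM) stayed in. Against AngII mice, Ucp1 had a log2 fold change of -0.55 (-1.42 to 0.32; limma adjusted p = 0.912). For Cidea, the log2 fold change was -0.27 (-0.87 to 0.34) against AngII and -0.32 (-0.89 to 0.26) against Control mice.

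Variation between mice of 1 group was then described by the within-group SD of log2(FPKM + 1), with no test. Fabp4 and Adipoq had an SD of 0.30, lower than the median of 0.40 over the 23914 shared transcripts. Pparg had 0.34, Cfd 0.38, Cidea 0.44 and Retn 0.51. The brown marker Ucp1 had 0.89, at percentile 87.5 of all transcripts, and at percentile 85.2 of the 5700 with a mean of at least 10 FPKM. Lep had 0.64, and Lpl had 1.28, at percentile 95.4. Fabp4 and Adipoq thus varied less between mice than the median transcript of the aorta, also among those of at least 10 FPKM (median 0.34), and Ucp1 varied more. Without Control mouse 3971 the SD of Ucp1 was 0.59, at percentile 70.5.

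**Figure D3:**
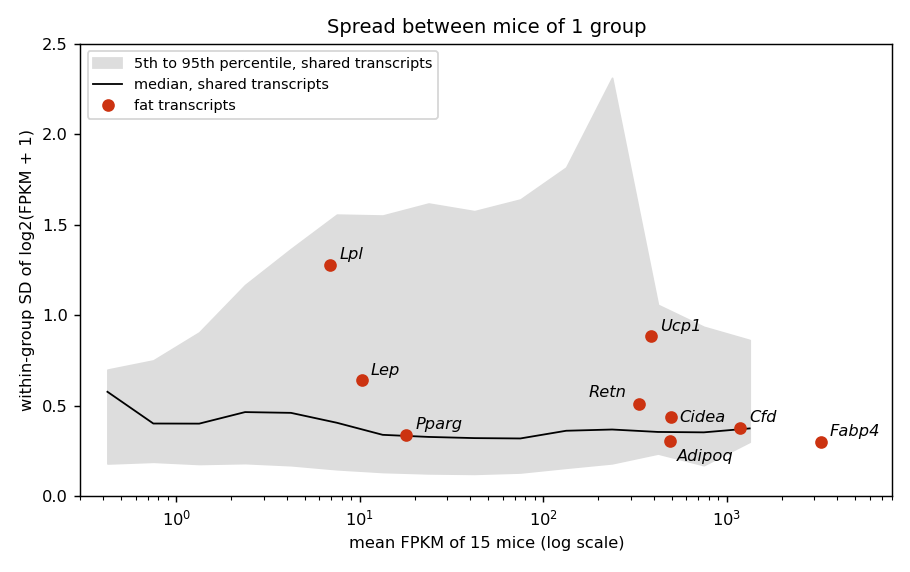
Within-group SD of log2(FPKM + 1) against mean FPKM of 15 mice (log scale); the line and the grey band are the median and the 5th to 95th percentile of shared Ensembl transcripts in bins of mean FPKM, drawn for bins of at least 20 transcripts. Fabp4 and Adipoq sit at 0.30, and Ucp1 at 0.89 and Lpl at 1.28 are the highest of the 9 fat transcripts.

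The spread of Ucp1 and its ratio to Adipoq were then set side by side by group, with no test. The SD of Ucp1 was 1.19 in Control mice, 0.89 in AngII mice and 0.39 in AngII+QDG mice on the log2 scale. The Control value rested on mouse 3971, without which it was 0.063, the lowest of the 3 groups. The log2 ratio of Ucp1 to Adipoq, with 1 FPKM added to each, was -0.45 ± 1.33 (SD, n = 5) in Control mice, -0.43 ± 0.93 (SD, n = 5) in AngII mice and -0.70 ± 0.36 (SD, n = 5) in AngII+QDG mice. It was lowest in Control mouse 3971, at -2.80, and highest in AngII mouse 3986, at 0.95. With all mice, the group means lay within 1 SD of each other. The AngII mean was -0.77 without mouse 3986 and -0.21 without mouse 4048. Without mouse 3971 the Control mean was 0.13 ± 0.25 (SD, n = 4), and these Control mice, between -0.11 and 0.40, were all above the AngII+QDG mice, between -1.13 and -0.35. That mouse was set aside for its low Ucp1 value, so the separation gives no separate support for a difference. The ratio of Cidea to Adipoq ran from -0.81 in the same Control mouse to 0.83 in the same AngII mouse.

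Mouse 3971 and mouse 3986 stood at opposite ends of this ratio. Mouse 3971 was the highest of 15 in Adipoq, Lep and Lpl and the lowest in Ucp1. Mouse 3986 was the highest in Ucp1 and 12th in Adipoq, with Retn 14th and Lpl second. Mouse 3982 of the AngII+QDG group was the lowest in Adipoq, Fabp4 and Cfd, and 12th in both Ucp1 and Cidea.

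Pairs of the fat transcripts were then compared across the 15 mice. Of the 36 pairs, 3 had a permutation p below 0.05 after Benjamini-Hochberg adjustment over the 36, all with positive r of log2(FPKM + 1), and 8 had an unadjusted p below 0.05. Among all pairs of the 23914 shared transcripts, 0.435% had an r of at least 0.77, the lowest of these 3, and 6.86% had an r of at least 0.54 in either direction, the lowest of the 8. Over all 36 the r was mixed in sign: it was above 0 in 23 pairs with a median of 0.25 over all mice, and above 0 in 16 pairs with a median of -0.028 within the Control and AngII mice. Centred on group means the median was -0.0088. None of the 36 passed adjustment within the Control and AngII mice. Values of a pair come from the same library and are shares of the same total.

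**Figure D4:**
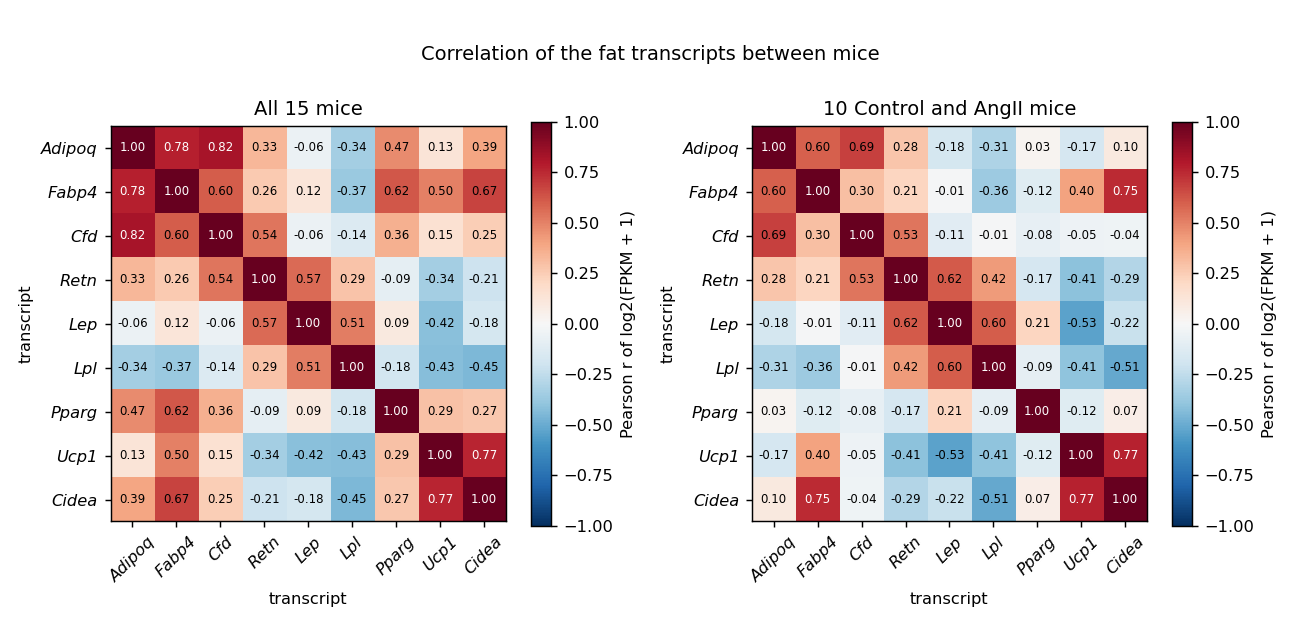
Pearson r of log2(FPKM + 1) for each pair of the 9 fat transcripts, over all 15 mice and over the 10 Control and AngII mice, which share 1 transcript list. Adipoq and Cfd (0.82 and 0.69) and Ucp1 and Cidea (0.77 and 0.77) are among the highest pairs in both, while Fabp4 and Pparg turn from 0.62 to -0.12.

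Adipoq and Cfd had the highest r, 0.82 (permutation p = 0.00035, adjusted 0.0101; Spearman's rho 0.75, permutation p = 0.00199, adjusted 0.0358). It was 0.84 without mice 3971 and 3982, the farthest from the median of Adipoq. Within the 10 Control and AngII mice it was 0.69 (permutation p = 0.0299, adjusted 0.359). Centred on group means, r was 0.85, and 22 of 23905 other shared transcripts had a higher r with Adipoq.

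Adipoq and Fabp4 had an r of 0.78 (permutation p = 0.00076, adjusted 0.0101; Spearman's rho 0.69, permutation p = 0.00558, adjusted 0.067). Without the same 2 mice it was 0.71. Within the 10 Control and AngII mice it was 0.60 (permutation p = 0.0644, adjusted 0.386). Centred on group means it was 0.66, and 326 of 23905 other transcripts had a higher r with Adipoq.

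The brown transcripts Ucp1 and Cidea had an r of 0.77 (permutation p = 0.00084, adjusted 0.0101; Spearman's rho 0.82, permutation p = 0.00032, adjusted 0.0115). It was 0.77 without mice 3971 and 3986, the farthest from the median of Ucp1. Within the Control and AngII mice it was 0.77 (permutation p = 0.0093, adjusted 0.212). Centred on group means it was 0.73, and 126 of 23905 other transcripts had a higher r with Ucp1.

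Between Adipoq and the brown transcripts, no r passed, and its size depended on the mice and the scaling. For Adipoq and Ucp1 it was 0.13 (permutation p = 0.635, adjusted 0.738; Spearman's rho 0.13, permutation p = 0.648, adjusted 0.752) over all mice, 0.45 without mouse 3971, 0.39 without mice 3971 and 3982, 0.33 after upper quartile scaling, and -0.17 (permutation p = 0.658, adjusted 0.971) within the Control and AngII mice. For Adipoq and Cidea it was 0.39 (permutation p = 0.149, adjusted 0.356; Spearman's rho 0.33, permutation p = 0.236, adjusted 0.483). It was 0.52 without the same 2 mice, 0.54 after upper quartile scaling, and 0.10 (permutation p = 0.785, adjusted 0.971) within Control and AngII mice. Fabp4, which both kinds of fat cell carry, was nearer to Cidea, with 0.67 (permutation p = 0.0057, adjusted 0.0513; Spearman's rho 0.61, permutation p = 0.0181, adjusted 0.163). It passed adjustment after upper quartile scaling (r = 0.76; permutation, adjusted p = 0.00954) and without mouse 3971 (0.73), 3986 (0.69), 3983 (0.74) or 3985 (0.69). That r was 0.51 without mice 3982 and 3984, the farthest from the median of Fabp4, and 0.75 (permutation p = 0.0118, adjusted 0.212) within Control and AngII mice. With Ucp1, r of Fabp4 was 0.50 (permutation p = 0.0567, adjusted 0.204; Spearman's rho 0.54, permutation p = 0.04, adjusted 0.265), 0.39 without those 2 mice, 0.40 within Control and AngII mice, and 0.72 without mouse 3971, where it passed adjustment (permutation, adjusted p = 0.0296).

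**Figure D5:**
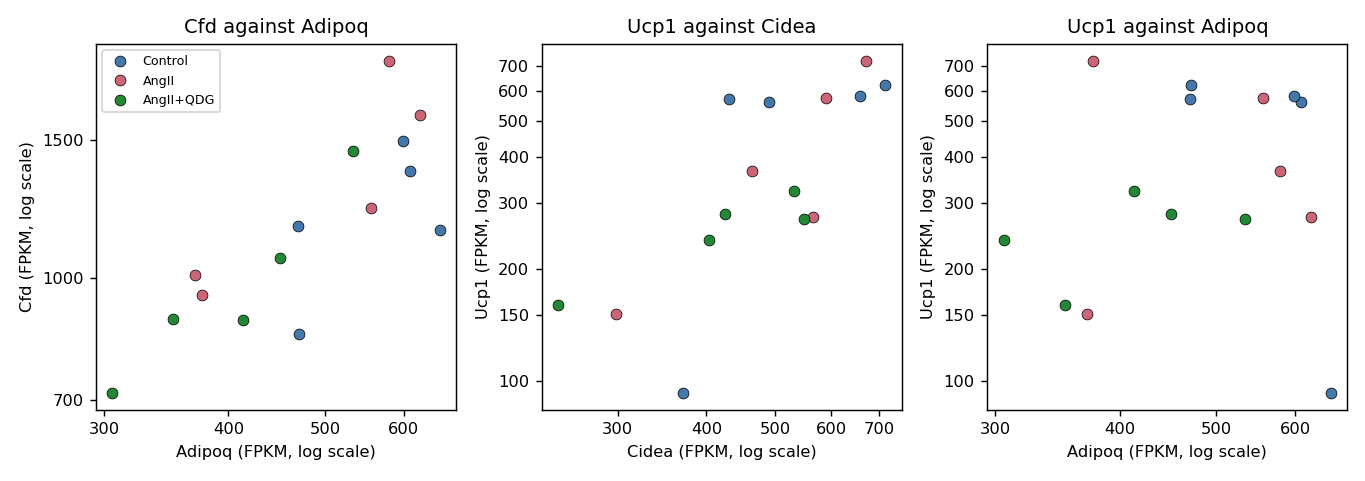
FPKM of Cfd against Adipoq, Ucp1 against Cidea and Ucp1 against Adipoq (log scales), with 1 point per mouse. The first and second pair rise together (r = 0.82 and 0.77), and in the third Control mouse 3971 is the highest in Adipoq (652) and the lowest in Ucp1 (92.5).

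For Lep, Lpl and Pparg, no r with Adipoq passed. Over all mice r with Adipoq was -0.06 for Lep (permutation p = 0.835; Spearman's rho 0.10, permutation p = 0.732), -0.34 for Lpl (permutation p = 0.216; Spearman's rho -0.30, permutation p = 0.277) and 0.47 for Pparg (permutation p = 0.0797; Spearman's rho 0.44, permutation p = 0.101), with adjusted p of 0.839, 0.405 and 0.261 for r and of 0.799, 0.483 and 0.332 for rho. Without mice 3971 and 3982 they were -0.41, -0.56 and 0.31. For Pparg, r was 0.60 after upper quartile scaling (permutation, adjusted p = 0.09), 0.58 without mouse 3986 and 0.60 without mouse 3981, and 0.029 within the Control and AngII mice. Centred on group means, r of Pparg with Adipoq was -0.029. Centring takes out every difference between groups, of list and of treatment alike.

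Over all mice, Retn was nearest to Lep and Cfd by r. Centred on group means, its r was 0.61 with Cfd, 0.53 with Adipoq and 0.51 with Lep. Its r with Lep was 0.57 (permutation p = 0.0239, adjusted 0.123; Spearman's rho 0.47, permutation p = 0.0793, adjusted 0.317), and 0.46 without mice 3986 and 4086, the farthest from the median of Retn. With Cfd it was 0.54 (permutation p = 0.0379, adjusted 0.171; Spearman's rho 0.53, permutation p = 0.0442, adjusted 0.265), and 0.29 without mice 3982 and 3988. Neither passed adjustment over all mice, and Retn and Cfd passed without Control mouse 4086 alone (r = 0.75; permutation, adjusted p = 0.0173). The leptin and Ucp1 transcripts, of white and of brown fat, had an r of -0.42 (permutation p = 0.116, adjusted 0.298; Spearman's rho -0.23, permutation p = 0.417, adjusted 0.612). Its size depended on mice 3971 and 4086, the farthest from the median of Lep, without which it was -0.12. With these mice kept, it was -0.53 within the Control and AngII mice (permutation p = 0.115, adjusted 0.519) and -0.48 centred on group means.

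The transcripts most like Adipoq from mouse to mouse were ENSMUST00000024978, with an r of 0.91 centred on group means, and ENSMUST00000058119, with 0.90. They were between 6.62 and 12.1 FPKM and between 27.0 and 60.0 FPKM. The least alike were ENSMUST00000150328 (-0.88) and ENSMUST00000146259 (-0.85). An r of at least 0.9 was reached by 3 of 23905 other transcripts with Adipoq, 4 with Ucp1 and 35 with Cidea. An r of at least 0.8 was reached by 53, 42 and 183. These are descriptions over 15 mice and carry no test.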

How the data were processed

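RNA-seq of the abdominal aorta of 15 mice was used, grouped by the labels. According to the methods, the authors filtered reads with NGSQC, aligned them to mm10 with HISAT2, and used StringTie to assemble transcripts and estimate their levels. The submitters' processing notes name limma, while the methods name DESeq. The deposited values are FPKM per transcript, so no count test was run. Each comparison was fitted on its 10 mice with limma 3.58.1 (lmFit, eBayes with trend) in R 4.3.3 on log2(FPKM + 1), on all transcripts of the list for AngII vs. Control and on shared Ensembl transcripts otherwise, and p was adjusted over all transcripts tested. The fit was also run on simulated data with large planted changes. That run does not test it for small changes or for the difference in transcript lists. Correlations used 100000 permutations. Gene positions are from RefSeq (GRCm38.p6), matched by symbol for all 9 genes. The members and lists were chosen with earlier results of these data known. All 9 members were named, and the 2 transcripts most and least like Adipoq. Lists of fat, muscle and other markers had been planned and were not run, as no table paired transcripts with genes, and no sequences were used.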

Additional observations from a re-analysis of the deposited data

Results flagged for a closer look

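In 27 sets of 5 values, 9 transcripts in 3 groups, the lowest and the highest mouse were checked for a wide gap to the remaining 4. There was 1 such gap, where chance gives about 1 in 20 sets, or 1.35. Ucp1 was 92.5 FPKM in Control mouse 3971 and between 563 and 623 FPKM in the other Control mice, a gap of 0.888 of the range against a critical value of 0.71. Cidea in the same mouse was 371 FPKM, the lowest of the Control mice.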

How the results depend on the processing

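Direction and call of Pparg were the same in all 30 other fits of the comparisons with AngII+QDG mice, with log2 fold changes between -3.11 and -2.26 and a limma adjusted p of at most 0.00129. With 1 mouse left out, 0 to 1 fat transcripts were DETs in AngII vs. Control and 1 to 2 in AngII+QDG vs. Control, where 1 to 2 had an adjusted p below 0.05. The added ones were Lep and Ucp1, each without Control mouse 3971. Without that mouse, 432 of all 26055 transcripts tested were DETs in AngII vs. Control. In AngII+QDG vs. Control without it, 745 of 20440 were DETs and 272 had an adjusted p below 0.05. Pairs with an adjusted p below 0.05 numbered 3 with all mice, 2 to 5 with 1 mouse left out, 6 after upper quartile scaling and 0 within the Control and AngII mice; the cause was not tested. The r of Adipoq and Fabp4 no longer passed without AngII+QDG mouse 3982 (0.70, adjusted permutation p = 0.0535).

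Signs turned for values that passed no adjusted threshold. Fabp4 and Pparg, with r of 0.62 and an unadjusted permutation p of 0.0136 over all mice, had -0.12 within the Control and AngII mice and -0.14 centred on group means. The mean log2 ratio of Ucp1 to Adipoq in Control mice turned from -0.45 to 0.13 without mouse 3971. For Adipoq and Ucp1, r was -0.17 within the Control and AngII mice and -0.088 centred on group means. Centred in this way, r with Adipoq was 0.047 for Lep and -0.029 for Pparg. After upper quartile scaling, Lpl in AngII+QDG vs. AngII was -0.011. With 1 mouse left out, r of Adipoq and Lep ran from -0.23 to 0.23. Log2 fold changes in AngII vs. Control ran from -0.013 to 0.23 for Cfd, from -0.68 to 0.16 for Ucp1 and from -0.17 to 0.13 for Cidea. In AngII+QDG vs. AngII they ran from -0.32 to 0.035 for Retn and from -0.37 to 0.40 for Lpl, and in AngII+QDG vs. Control from -0.014 to 0.68 for Lep.

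With at least 1 FPKM required in every mouse, 8 of the 9 transcripts were tested, without Lpl. Lists of related genes and their sums per gene were not run. No paired analysis was possible because mouse numbers differ between the groups. The precision rests on 5 mice per group, and the absolute depth is unknown.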
